A study of Homo sapiens with 12 samples.

Results

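PAE (paeonol) in SKOV3/DDP was compared with untreated SKOV3/DDP by RNA sequencing, with 3 libraries in each group, and these 6 libraries were chosen by their labels out of the 12 of the series. SKOV3 is a human epithelial ovarian cancer cell line, and SKOV3/DDP was derived from it as a stable line resistant to cisplatin (DDP). Both groups were SKOV3/DDP cells grown in the same medium, and they differed in the agent PAE. The sample labels gave neither the dose nor the duration of PAE, the names of the PAE count columns carry a figure before a P with no unit, and the study's methods gave no vehicle for the untreated libraries. One resistant line was sampled, so the libraries were replicates of that line. The series describes biological triplicates, and since nothing named the cultures, p-values measured the spread between these libraries.

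Paeonol is a phenolic ketone from the root bark of the peony. Cisplatin crosslinks DNA, and resistant cells are known to differ in drug transport, thiol metabolism, DNA repair and the control of division. The study was concerned with NEK6, a serine/threonine kinase of mitosis, and with de novo purine synthesis, the pathway that builds the purine ring for DNA and RNA. Dividing cells pass from replication in S phase to G2 and mitosis, and each step has its own set of periodically transcribed genes. Interferon-stimulated genes are switched on by interferon signalling and encode antiviral proteins. YAP, with its DNA-binding partner TEAD, and SRF are transcription regulators that act when cells spread, adhere and build actin filaments.

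Values are CPM (counts per 1000000 counts of a library), scaled by TMM factors, which correct library totals for the genes that take up most reads. A log2 fold change is PAE over untreated, given ± its standard error, and adjusted p-values came from the quasi-likelihood test of edgeR with Benjamini-Hochberg adjustment. A gene was called higher or lower at an adjusted p under 0.05, with 3 libraries on each side throughout. The 6 libraries held between 15031362 and 17456185 counts. Among them 2 stood apart. Log2 CPM of untreated replicates 1 and 3 correlated at 0.983, whereas replicate 2 correlated with them at 0.940 and 0.945. PAE replicates 1 and 2 correlated at 0.981, and replicate 3 correlated with them at 0.958 and 0.952. Mitochondrially encoded genes held 3.93% of the counts of PAE replicate 3, against 6.76% and 8.67% in the other PAE libraries and 8.66% to 11.2% in the untreated ones. Untreated replicate 2 also carried high levels of stress genes, such as HMOX1 at 15.0, 1484 and 13.3 CPM in the untreated libraries. Counts that rest on either library are therefore given with and without it.

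Defining markers of the ovarian label were partly absent. PAX8, a Müllerian transcription factor, was at 3.40, 3.41 and 5.57 CPM in untreated SKOV3/DDP and 2.45, 3.62 and 1.27 CPM with PAE. WT1 had 0, 0 and 2 counts in the untreated libraries and 2, 1 and 3 with PAE, and SOX17 had none in any. Mesothelin (MSLN), an ovarian cancer surface antigen, was at 337, 432 and 397 CPM in untreated SKOV3/DDP and 365, 278 and 248 CPM with PAE, with overlapping groups, and was not called. Other members of the Müllerian and ovarian list were expressed, such as EPCAM at 271, 313 and 282 CPM and GATA6 at 121, 90.1 and 135 CPM in untreated cells. The intestinal transcription factor CDX2 was present at 202, 107 and 181 CPM in untreated cells. Other intestinal markers were near absent, such as KRT20 with 0, 7 and 3 counts and MUC2 with 0, 4 and 2 in the untreated libraries. Of the Müllerian and ovarian list 16 of 21 members were tested, and of the intestinal list 13 of 29. Markers of other cell types were low. PTPRC, CD3E and CD3D of leukocytes had at most 2 counts in a library, and CDH5 and KDR of endothelium and COL1A2 of fibroblasts had none. CD68, which also marks lysosomes, was the exception at 104, 83.3 and 104 CPM in untreated SKOV3/DDP and 54.4, 44.2 and 56.6 CPM with PAE. With it, the summed level of 3 tested leukocyte markers was 86.9 to 108 CPM in untreated libraries and 46.3 to 59.0 CPM with PAE, and 1 of them was called lower. The sums were 13.3 to 15.2 and 13.04 to 20.4 CPM for 7 fibroblast markers, with 2 called lower, and 8.94 to 9.47 and 7.04 to 7.71 CPM for 4 endothelial markers, with 1 called lower. The part of other cell types in the changes below was not tested.

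With PAE, genes of mitosis (36 of 51 tested), interferon-stimulated genes (27 of 38), integrins and adhesion receptors (13 of 22) and intestinal epithelial genes (9 of 13) were lower. Of the lysosome and autophagy list 10 of 32 were higher and 1 was lower. In all, 4526 of 17133 tested genes changed (26.4%), 2014 higher (11.8%) and 2512 lower (14.7%). Of the tested genes, 370 had no count in these 6 libraries and passed the filter through the SKOV3 groups. The 2 groups did not overlap for 7721 genes (45.1%), which included 4385 of the called genes. The split depended on scaling. TMM left the median log2 fold change at 0.00, whereas scaling by library size alone moved it to 0.16 and called 2889 higher and 1913 lower. Changes below are relative to the TMM median, and no named gene that was called changed direction under library-size scaling. Protein-coding genes were called in both directions (1721 higher and 2214 lower of 13778). Of 2221 long non-coding RNAs, 200 were higher and 242 lower. Transcribed pseudogenes were split 45 higher to 21 lower of 398.

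**Figure D1:**
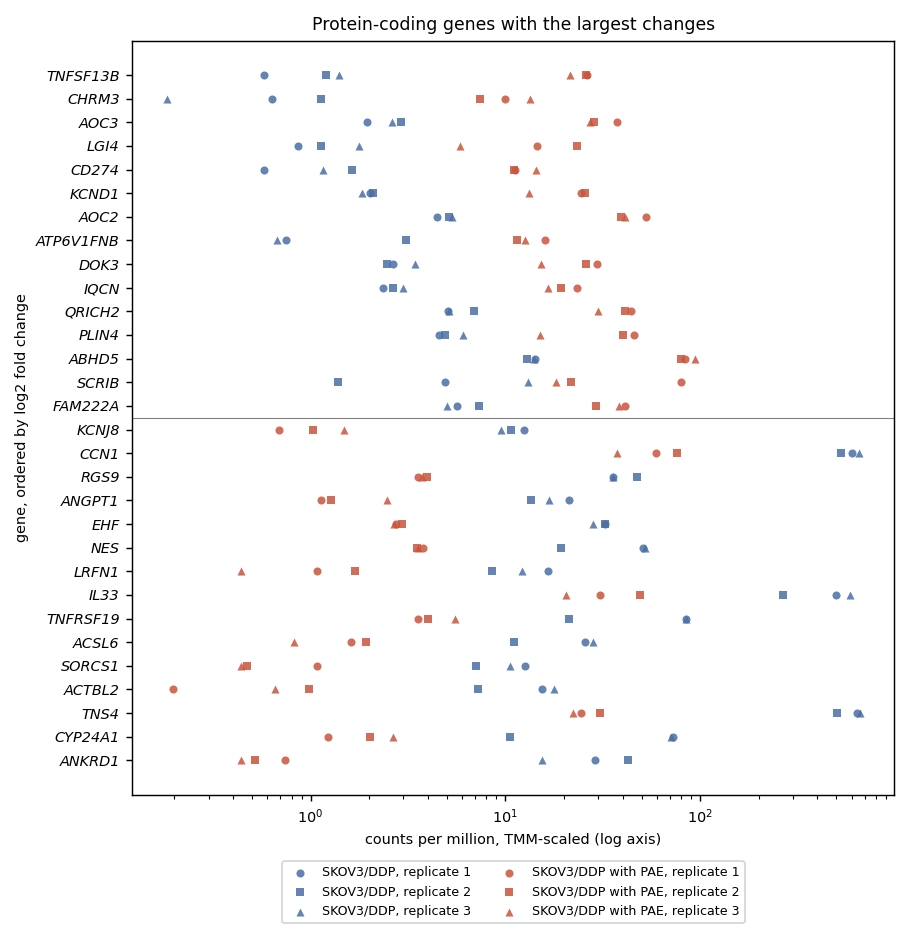
TMM-scaled CPM of each of the 6 libraries, on a log axis, for the 15 protein-coding genes with the largest rise and the 15 with the largest fall. Circles, squares and triangles are replicates 1, 2 and 3; blue is untreated SKOV3/DDP and red is SKOV3/DDP with PAE. The groups do not overlap for any of the 30 genes because the rule required it.

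The largest rises included genes that were low in untreated cells. TNFSF13B encodes the B cell survival factor BAFF (chr13:108268240-108308484), and was at 0.58, 1.20 and 1.41 CPM in untreated SKOV3/DDP and 26.3, 25.8 and 21.5 CPM with PAE (log2 fold change 4.53 ± 0.38, adjusted p = 2.64e-05). CD274 encodes PD-L1, the ligand that restrains T cells through PD-1. It was at 0.58, 1.64 and 1.16 CPM in untreated SKOV3/DDP and 11.2, 11.1 and 14.4 CPM with PAE (3.44 ± 0.39, adjusted p = 7.46e-05), and every PAE library lay above every untreated one. The M3 muscarinic receptor gene CHRM3 was at 0.63, 1.14 and 0.18 CPM in untreated SKOV3/DDP and 9.96, 7.38 and 13.3 CPM with PAE (3.96 ± 0.58, adjusted p = 0.000887). KCND1, a voltage-gated potassium channel, was at 2.02, 2.08 and 1.84 CPM in untreated SKOV3/DDP and 24.4, 25.6 and 13.2 CPM with PAE (3.41 ± 0.34, adjusted p = 3.46e-05).

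AOC3 and AOC2, neighbouring paralogs on chromosome 17 that encode copper amine oxidases, rose together. AOC3 was at 1.96, 2.90 and 2.63 CPM in untreated SKOV3/DDP and 37.3, 28.6 and 27.2 CPM with PAE (3.63 ± 0.51, adjusted p = 0.000282), and AOC2 rose from 4.96 ± 0.46 CPM to 44.4 ± 7.25 CPM (mean ± SD, n = 3; 3.16 ± 0.37, adjusted p = 9.67e-05). Since they are similar in sequence, reads may have been split between them. ABHD5, the coactivator of the triglyceride lipase ATGL, was at 14.2, 12.9 and 14.1 CPM in untreated SKOV3/DDP and 83.4, 79.3 and 94.2 CPM with PAE (2.64 ± 0.22, adjusted p = 1.99e-05). PLIN4, which coats lipid droplets, was at 4.56, 4.92 and 6.06 CPM in untreated SKOV3/DDP and 45.7, 40.1 and 15.1 CPM with PAE (2.70 ± 0.40, adjusted p = 0.000371). PAE replicate 3 was the lowest PAE library for PLIN4 and the highest for ABHD5. DOK3, an adaptor of immune receptor signalling, was at 2.65, 2.46 and 3.43 CPM in untreated SKOV3/DDP and 29.6, 26.0 and 15.2 CPM with PAE (3.05 ± 0.40, adjusted p = 0.000183). QRICH2, PLIN4 and ABHD5 are each overlapped by a gene with many counts (UBALD2, HDGFL2 and ANO10), and the strand of counting was not given. Of the rest, LGI4, ATP6V1FNB, IQCN and FAM222A rose by between 2.59 and 3.53 on the log2 scale. SCRIB, a polarity scaffold, rested on uneven libraries, at 4.90, 1.39 and 13.04 CPM in untreated SKOV3/DDP and 79.3, 21.8 and 18.1 CPM with PAE (2.62 ± 0.86, adjusted p = 0.0352). It was no longer called without untreated replicate 2 (adjusted p = 0.0876).

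The largest fall was of ANKRD1, a YAP target that encodes an ankyrin-repeat protein of striated muscle and of spread cells. It was at 28.8, 42.7 and 15.4 CPM in untreated SKOV3/DDP and 0.74, 0.52 and 0.44 CPM with PAE (-5.66 ± 0.49, adjusted p = 2.64e-05). TNS4, a focal adhesion protein of epithelia, fell from an abundant transcript, at 635, 503 and 659 CPM in untreated SKOV3/DDP and 24.5, 30.5 and 22.2 CPM with PAE (-4.54 ± 0.36, adjusted p = 1.99e-05). The alarmin cytokine IL33 was at 495, 266 and 585 CPM in untreated SKOV3/DDP and 30.6, 49.2 and 20.5 CPM with PAE (-3.75 ± 0.46, adjusted p = 0.000122). For each of these 3 genes the lowest untreated library lay far above the highest PAE library. CYP24A1, the enzyme that breaks down active vitamin D, was at 72.5, 10.6 and 70.6 CPM in untreated SKOV3/DDP and 1.23, 2.02 and 2.64 CPM with PAE (-4.71 ± 0.90, adjusted p = 0.00202), and untreated replicate 2 was the lowest untreated library by a wide margin. EHF, an epithelial ETS factor, was at 32.6, 32.6 and 28.0 CPM in untreated SKOV3/DDP and 2.75, 2.96 and 2.70 CPM with PAE (-3.47 ± 0.39, adjusted p = 7.46e-05). NES, the intermediate filament nestin, was at 51.2, 19.3 and 52.0 CPM in untreated SKOV3/DDP and 3.78, 3.52 and 3.58 CPM with PAE (-3.49 ± 0.44, adjusted p = 0.000143). ACTBL2, an actin-like gene, fell by 4.44 on the log2 scale and may share reads with the actins. The other falls on the list were SORCS1, ACSL6, TNFRSF19, LRFN1, ANGPT1, RGS9, CCN1 and KCNJ8, with log2 fold changes between -3.91 and -3.35. Of the 30 genes, 29 were still called with both libraries that stood apart left out, and SCRIB was not.

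**Figure D2:**
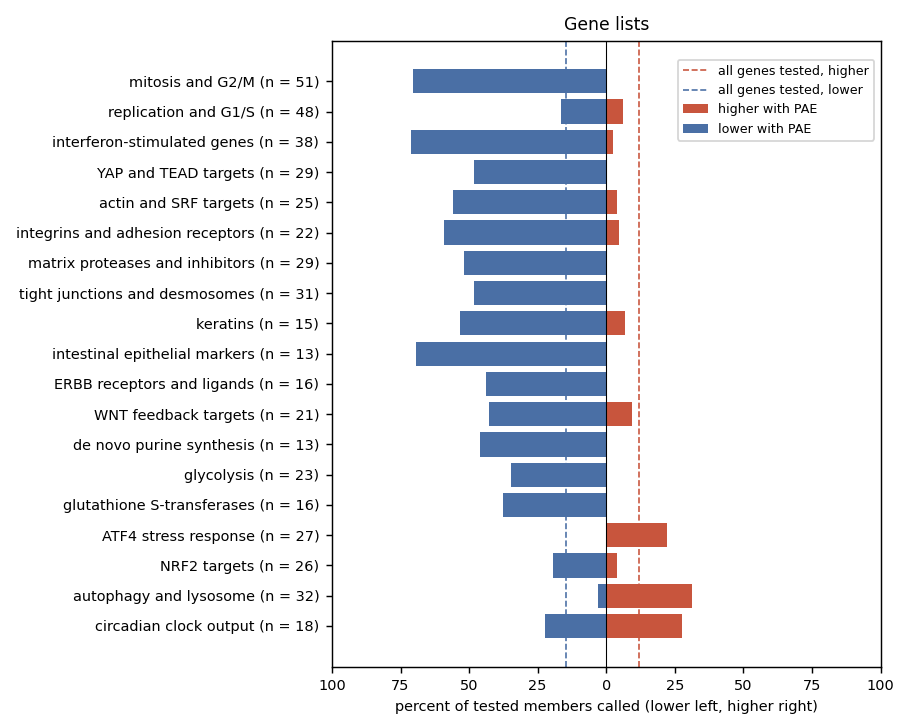
Share of tested members of 19 gene lists called lower (blue, to the left) or higher (red, to the right) with PAE, in percent of tested members. Dashed lines are the same shares over all genes tested (14.7% lower and 11.8% higher), and n is the number of members tested. Among the lists drawn, which were picked from those described in the text, the bars of the mitosis, interferon-stimulated, adhesion and intestinal lists lie well to the left of the dashed line, and those of the autophagy and lysosome list to the right of it.

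Genes of mitosis and G2/M fell together. Of 51 tested members, 36 were called lower and none higher, with a median log2 fold change of -1.16. Over all genes 14.7% were lower and the median was 0.00. In bulk libraries, fewer cells in a phase and less RNA per cell cannot be told apart. TOP2A, the topoisomerase that untangles chromosomes, was at 433, 158 and 331 CPM in untreated SKOV3/DDP and 57.2, 49.0 and 85.6 CPM with PAE (-2.27 ± 0.36, adjusted p = 0.00056). The proliferation marker MKI67 was at 253, 85.4 and 190.4 CPM in untreated SKOV3/DDP and 61.0, 42.8 and 77.5 CPM with PAE (-1.54 ± 0.42, adjusted p = 0.0140). Untreated replicate 2 was the lowest untreated library for both, yet lay above every PAE library. CDK1, the kinase that drives entry into mitosis, was at 111, 47.3 and 112 CPM in untreated SKOV3/DDP and 28.2, 30.0 and 35.6 CPM with PAE (-1.53 ± 0.32, adjusted p = 0.00361). Its partner cyclin CCNB1 was at 193, 81.0 and 159 CPM in untreated SKOV3/DDP and 57.7, 57.8 and 60.2 CPM with PAE (-1.30 ± 0.37, adjusted p = 0.0188). AURKA, which builds the spindle poles, was at 85.5, 35.0 and 70.4 CPM in untreated SKOV3/DDP and 27.9, 21.5 and 28.9 CPM with PAE (-1.29 ± 0.32, adjusted p = 0.00957). Untreated replicate 2 was again the lowest untreated library for these 3 genes. PLK1, a kinase of mitotic entry and exit, was at 33.4, 12.6 and 27.2 CPM in untreated SKOV3/DDP and 12.02, 10.4 and 13.5 CPM with PAE (-1.03 ± 0.32, adjusted p = 0.0267), with untreated replicate 2 inside the PAE range. Further falls were of the spindle and kinetochore genes SPC24 (-2.28), HMMR (-2.23), DLGAP5 (-2.16) and ASPM (-2.03).

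Without untreated replicate 2, 39 of the 51 were lower and the median was -1.44. Over all genes that fit called 11.5% higher and 12.9% lower. Without both libraries that stood apart the count was 39 and the median -1.58, where 10.1% of all genes were higher and 11.7% lower. Without PAE replicate 3 alone, 27 were lower.

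Promoters of 3 mitotic genes are shown because mitotic genes share 2 known elements, the CHR (searched as TTTGAA) and the CCAAT box (searched as CCAAT), which bind the MuvB and NF-Y complexes. The sequences are upstream stretches of RefSeq promoters on GRCh38.p14, written 5′ to 3′ along the gene's strand, with matches to either element on either strand in capitals. The genes are the 3 largest falls with a CHR match before the start. The TOP2A stretch is chr17:40417933-40418146 on the minus strand, the HMMR stretch chr5:163460443-163460627 on the plus strand and the DLGAP5 stretch chr14:55191591-55191735 on the minus strand.
TOP2A: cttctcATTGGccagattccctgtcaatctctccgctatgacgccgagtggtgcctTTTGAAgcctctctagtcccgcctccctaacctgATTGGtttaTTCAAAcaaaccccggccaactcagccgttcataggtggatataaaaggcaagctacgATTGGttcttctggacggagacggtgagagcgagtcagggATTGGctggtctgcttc
HMMR: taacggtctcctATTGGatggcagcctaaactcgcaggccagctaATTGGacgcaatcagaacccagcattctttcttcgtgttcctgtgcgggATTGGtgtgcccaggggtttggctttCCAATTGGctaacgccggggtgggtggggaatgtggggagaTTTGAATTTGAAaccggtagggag
DLGAP5: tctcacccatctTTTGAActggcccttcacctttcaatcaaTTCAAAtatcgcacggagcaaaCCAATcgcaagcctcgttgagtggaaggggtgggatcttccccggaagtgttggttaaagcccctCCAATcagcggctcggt

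In the RefSeq windows of 300 bases (250 before and 50 after the start), TTTGAA on either strand was present for 30 of the 44 mitotic genes with a promoter entry (68.2%), against 15.4% of 27305 promoters. CCAAT was present for 34 of the 44 (77.3%), against 35.7% of all promoters. Of the 31 called lower among them, 22 held TTTGAA. The match describes the letters of these windows and not binding.

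Genes of replication and G1/S did not move as one group. Of 48 tested, 3 were higher (6.25%, against 11.8% over all genes) and 8 lower (16.7%, against 14.7%), with a median of 0.01. PRIM1, the catalytic primase subunit, was at 10.3, 9.72 and 7.22 CPM in untreated SKOV3/DDP and 0.98, 1.60 and 3.47 CPM with PAE (-2.18 ± 0.37, adjusted p = 0.000978). UHRF1, which maintains DNA methylation at the fork, was at 29.2, 6.76 and 21.7 CPM in untreated SKOV3/DDP and 7.995, 6.95 and 6.49 CPM with PAE (-1.43 ± 0.38, adjusted p = 0.0139), and untreated replicate 2 lay within the PAE range. CCNE2, a cyclin of S phase entry, was higher at 2.36, 1.64 and 1.04 CPM in untreated SKOV3/DDP and 5.84, 6.16 and 5.34 CPM with PAE (1.77 ± 0.45, adjusted p = 0.0101). MCM2, of the replicative helicase, was at 20.8, 7.64 and 11.7 CPM in untreated SKOV3/DDP and 6.67, 4.32 and 16.2 CPM with PAE and was not called (adjusted p = 0.328).

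Among the cyclins and CDK inhibitors, CCND1, the cyclin of early G1, had the largest fall. It was at 1501, 826 and 1428 CPM in untreated SKOV3/DDP and 242, 221 and 219 CPM with PAE (-2.46 ± 0.26, adjusted p = 5.7e-05). CDKN2B, which inhibits CDK4 and CDK6, rose at 2.42, 4.67 and 3.55 CPM in untreated SKOV3/DDP and 12.9, 13.6 and 10.6 CPM with PAE (1.80 ± 0.27, adjusted p = 0.00038). The groups did not overlap for either gene. CDKN1A (p21) was at 874, 1383 and 818 CPM in untreated SKOV3/DDP and 1803, 1230.1 and 1866 CPM with PAE and was not called (adjusted p = 0.126). Untreated replicate 2 lay above PAE replicate 2, and without that untreated library CDKN1A was called higher (log2 fold change 0.95, adjusted p = 0.0466). Over the 22 tested members, 3 were higher (13.6%, against 11.8% over all genes) and 3 lower (13.6%, against 14.7%). BIRC5 (survivin), which is both a mitotic and an anti-apoptotic gene, was at 62.3, 28.0 and 52.2 CPM in untreated SKOV3/DDP and 18.002, 14.1 and 18.5 CPM with PAE (-1.49 ± 0.26, adjusted p = 0.00101).

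Interferon-stimulated genes fell. Of 38 tested, 27 were lower and 1 was higher, with a median of -1.40. IFIT1, which binds uncapped viral RNA, was at 145, 67.9 and 67.2 CPM in untreated SKOV3/DDP and 13.1, 15.3 and 9.41 CPM with PAE (-2.88 ± 0.31, adjusted p = 6.25e-05). OAS1, which senses double-stranded RNA, was at 79.5, 41.8 and 48.4 CPM in untreated SKOV3/DDP and 14.3, 14.003 and 8.25 CPM with PAE (-2.21 ± 0.31, adjusted p = 0.000301). BST2 (tetherin), which holds virus particles on the cell, was at 45.3, 40.7 and 17.2 CPM in untreated SKOV3/DDP and 7.75, 2.11 and 5.78 CPM with PAE (-2.72 ± 0.42, adjusted p = 0.000528). The groups did not overlap for these 3 genes, and untreated replicate 1 was the highest library for each. OASL was at 23.2, 23.5 and 13.6 CPM in untreated SKOV3/DDP and 3.48, 4.09 and 2.04 CPM with PAE (-2.64 ± 0.30, adjusted p = 7.56e-05), and DDX60, a helicase of RNA sensing, was at 79.8, 43.2 and 38.0 CPM in untreated SKOV3/DDP and 8.53, 7.75 and 14.6 CPM with PAE (-2.38 ± 0.43, adjusted p = 0.00139). ISG15, a ubiquitin-like modifier, was at 698, 502 and 516 CPM in untreated SKOV3/DDP and 405, 289.7 and 210.4 CPM with PAE (-0.92 ± 0.25, adjusted p = 0.0144), a smaller fall from a high level. XAF1 fell by 3.27 on the log2 scale and IFIT3 by 1.70. IFIT2 was not called (adjusted p = 1.00). The member that rose, IRF1, encodes a transcription factor that drives such genes, and was at 16.6, 24.4 and 15.7 CPM in untreated SKOV3/DDP and 31.0, 31.2 and 24.2 CPM with PAE (0.61 ± 0.21, adjusted p = 0.0443), with untreated replicate 2 just above PAE replicate 3.

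The count was 26 lower without untreated replicate 2, 21 without PAE replicate 3 and 23 without both. Class I antigen presentation genes did not share the pattern, with 1 higher (NLRC5) and 1 lower (ERAP2) of 11 tested.

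**Figure D3:**
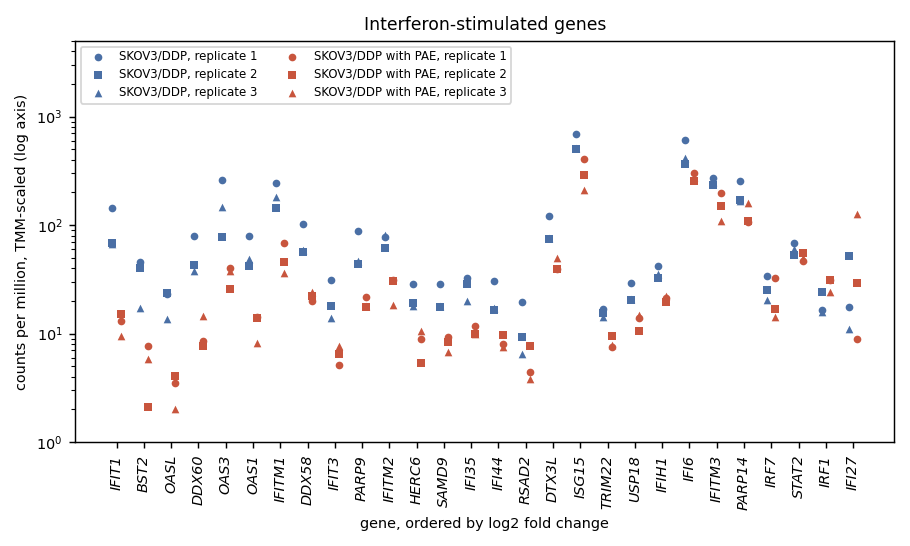
TMM-scaled CPM in each library, on a log axis, for interferon-stimulated genes with an untreated mean of at least 10 CPM, ordered from the largest fall on the left. Blue symbols are untreated SKOV3/DDP and red symbols SKOV3/DDP with PAE, and IFIT1, BST2, OASL and DDX60 at the left show wide gaps between the groups.

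The interferon-stimulated response element (ISRE), searched as GAAANNGAAA, is shown for the 3 largest falls with an untreated mean of at least 10 CPM and a match before the start. Matches on either strand are in capitals. The IFIT1 stretch is chr10:89392495-89392541 on the plus strand, the BST2 stretch chr19:17405733-17405772 on the minus strand and the DDX60 stretch chr4:168318784-168318852 on the minus strand, from RefSeq on GRCh38.p14.
IFIT1: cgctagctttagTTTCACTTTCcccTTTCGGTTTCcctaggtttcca
BST2: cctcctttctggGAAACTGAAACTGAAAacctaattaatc
DDX60: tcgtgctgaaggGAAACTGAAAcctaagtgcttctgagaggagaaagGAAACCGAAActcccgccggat

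Each of the 3 held 2 matches, which overlap in BST2. The element was present in the windows of 19 of the 30 interferon-stimulated genes with an entry (63.3%), against 3.65% of all promoters. Among the 22 called lower with an entry, 14 held it.

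Other inflammatory genes differed in direction. In the NF-kB cytokine list of 35 tested genes, none was higher and 7 were lower (20%, against 14.7% over all genes). TNFAIP2 was at 20.7, 18.3 and 18.2 CPM in untreated SKOV3/DDP and 3.88, 3.01 and 3.08 CPM with PAE (-2.52 ± 0.27, adjusted p = 6.24e-05), and the membrane chemokine CX3CL1 at 9.52, 15.2 and 10.1 CPM in untreated SKOV3/DDP and 2.35, 1.74 and 2.26 CPM with PAE (-2.45 ± 0.41, adjusted p = 0.000791). CCL5 was called lower (-4.06 ± 1.17, adjusted p = 0.0202) with untreated replicate 3 far above the rest, at 8.997, 1.39 and 145 CPM in untreated SKOV3/DDP and 2.70, 3.20 and 3.41 CPM with PAE. CXCL8, the neutrophil chemokine, was at 9.34, 76.7 and 6.98 CPM in untreated SKOV3/DDP and 88.9, 123 and 54.4 CPM with PAE. It was not called with all libraries (adjusted p = 0.166) and was higher without untreated replicate 2 (log2 fold change 3.44, adjusted p = 0.00261). Without that library 7 members were higher and 8 lower.

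Targets of YAP and TEAD were lower or did not pass the test. Of 29 tested, 14 were lower and none higher, with a median of -0.77. CCN1, a secreted matricellular protein, was at 601, 527 and 657 CPM in untreated SKOV3/DDP and 59.6, 76.2 and 37.5 CPM with PAE (-3.36 ± 0.44, adjusted p = 0.000166). AXL, a receptor tyrosine kinase linked to drug resistance, was at 161, 166 and 130.3 CPM in untreated SKOV3/DDP and 38.4, 32.7 and 38.2 CPM with PAE (-2.06 ± 0.23, adjusted p = 7.53e-05). The groups were separated by a wide gap for both. MYOF was at 221, 214 and 194 CPM in untreated SKOV3/DDP and 49.3, 47.5 and 73.6 CPM with PAE (-1.89 ± 0.33, adjusted p = 0.00105), and AMOTL2, a feedback inhibitor of YAP, was at 66.0, 182 and 65.5 CPM in untreated SKOV3/DDP and 44.5, 44.9 and 22.7 CPM with PAE (-1.48 ± 0.37, adjusted p = 0.00963), with untreated replicate 2 the highest. CCN2, a close relative of CCN1, was at 64.2, 360.4 and 38.8 CPM in untreated SKOV3/DDP and 54.9, 56.7 and 43.8 CPM with PAE and was not called (adjusted p = 0.0849). Without untreated replicate 2 the count was 13 lower and 1 higher.

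The ANKRD1 promoter is shown because it had the largest fall and 2 matches to the TEAD site (searched as GGAATG, in capitals, either strand). The stretch is chr10:90921198-90921319 on the minus strand of chromosome 10.
ANKRD1: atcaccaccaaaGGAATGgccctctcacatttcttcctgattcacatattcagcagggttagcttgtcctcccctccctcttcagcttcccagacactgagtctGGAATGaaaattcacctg

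Matches were present for 8 of the 20 YAP and TEAD targets with an entry (40.0%), against 14.05% of all promoters. Of the 10 called lower with an entry, ANKRD1 was the 1 with a match.

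Actin genes were lower too. Of 25 actin and SRF targets, 14 were lower and 1 was higher. The cytoplasmic actin ACTG1 was at 5459, 5323 and 6080.4 CPM in untreated SKOV3/DDP and 1091, 1356 and 749.8 CPM with PAE (-2.40 ± 0.24, adjusted p = 3.46e-05). ACTB, the other cytoplasmic actin, was at 3448, 2403 and 3665 CPM in untreated SKOV3/DDP and 1747, 1870.1 and 1202 CPM with PAE (-0.98 ± 0.26, adjusted p = 0.0136), a smaller fall. ACTB is often used as a reference gene, and here its groups did not overlap. VCL (vinculin), which links actin to focal adhesions, was at 238, 161 and 189 CPM in untreated SKOV3/DDP and 71.6, 71.8 and 135 CPM with PAE (-1.08 ± 0.35, adjusted p = 0.0322). TPM4, a tropomyosin, was at 1320.4, 1471 and 1286 CPM in untreated SKOV3/DDP and 599.6, 599 and 542 CPM with PAE (-1.23 ± 0.24, adjusted p = 0.00225). SRF itself was higher, at 31.5, 33.3 and 24.3 CPM in untreated SKOV3/DDP and 55.6, 46.2 and 68.2 CPM with PAE (0.93 ± 0.25, adjusted p = 0.0139). Tubulins were less uniform, with 6 lower and 2 higher of 18. TUBA1B was at 837, 546 and 787 CPM in untreated SKOV3/DDP and 309, 254 and 314 CPM with PAE (-1.31 ± 0.21, adjusted p = 0.000573), and TUBB3, a tubulin associated with taxane resistance, was at 403, 441 and 442 CPM in untreated SKOV3/DDP and 329, 267 and 243 CPM with PAE (-0.62 ± 0.19, adjusted p = 0.0258).

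Receptors and ligands of the cell surface were lower in many cases. Of 22 integrins and adhesion receptors, 13 were lower. ITGA6 and ITGB4 form the laminin receptor of hemidesmosomes. ITGA6 was at 1101, 688 and 894 CPM in untreated SKOV3/DDP and 216, 230.5 and 508 CPM with PAE (-1.49 ± 0.39, adjusted p = 0.0116) and ITGB4 at 510.3, 457 and 517 CPM in untreated SKOV3/DDP and 153, 109 and 171 CPM with PAE (-1.78 ± 0.26, adjusted p = 0.000399). ITGA2 was at 285, 138 and 239 CPM in untreated SKOV3/DDP and 40.3, 52.5 and 112 CPM with PAE (-1.69 ± 0.49, adjusted p = 0.0209), and L1CAM at 15.7, 14.8 and 15.8 CPM in untreated SKOV3/DDP and 4.41, 3.76 and 5.01 CPM with PAE (-1.81 ± 0.22, adjusted p = 0.000121). PAE replicate 3 was the highest PAE library for all 4 genes and still lay below every untreated library. ITGB1 was not called (adjusted p = 0.573), nor was ITGA5 (adjusted p = 0.779).

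Matrix genes were lower in part, with 12 lower and 2 higher of 32. LAMA2, a laminin chain of basement membranes, was at 238, 145 and 215 CPM in untreated SKOV3/DDP and 17.0, 21.1 and 31.9 CPM with PAE (-3.09 ± 0.38, adjusted p = 0.000202). LAMA5 was at 439, 412 and 429 CPM in untreated SKOV3/DDP and 129, 133 and 203 CPM with PAE (-1.46 ± 0.29, adjusted p = 0.00282), SPARC at 23.7, 19.6 and 28.6 CPM in untreated SKOV3/DDP and 2.35, 4.09 and 1.98 CPM with PAE (-3.09 ± 0.39, adjusted p = 0.000234) and the angiogenesis inhibitor THBS1 at 224, 267 and 174 CPM in untreated SKOV3/DDP and 43.5, 49.9 and 70.5 CPM with PAE (-2.02 ± 0.38, adjusted p = 0.00184). COL1A1, also a fibroblast marker, was at 3.58, 3.72 and 4.65 CPM in untreated SKOV3/DDP and 0.54, 0.56 and 0.22 CPM with PAE (-3.14 ± 0.42, adjusted p = 0.000205), while DCN and PDGFRA of fibroblasts had no count in any library. Of 29 proteases and inhibitors 15 were lower and none higher. PLAT, the tissue plasminogen activator, was at 259, 49.9998 and 407 CPM in untreated SKOV3/DDP and 23.1, 27.1 and 21.1 CPM with PAE (-3.33 ± 0.57, adjusted p = 0.000949), with untreated replicate 2 closest to the PAE range. ADAM19 was at 141, 70.3 and 146 CPM in untreated SKOV3/DDP and 19.3, 22.9 and 22.5 CPM with PAE (-2.46 ± 0.29, adjusted p = 0.000108), and the urokinase pair PLAU and PLAUR fell by 2.05 and 1.13. The count was 15 without untreated replicate 2 and 15 without both libraries that stood apart.

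Epithelial structure genes were lower. Keratins KRT8 and KRT18, the filaments of simple epithelia, were among the most abundant transcripts. KRT8 was at 5213, 5405 and 5219.6 CPM in untreated SKOV3/DDP and 1714, 1152 and 1185 CPM with PAE (-1.97 ± 0.26, adjusted p = 0.000181), and KRT18 at 3383, 5425 and 3762 CPM in untreated SKOV3/DDP and 1031, 916 and 595 CPM with PAE (-2.31 ± 0.31, adjusted p = 0.000205). KRT19 was at 1366, 1136 and 1546 CPM in untreated SKOV3/DDP and 269, 229 and 188 CPM with PAE (-2.56 ± 0.29, adjusted p = 7.46e-05), and all PAE libraries lay far below the untreated ones for each of the 3 keratins. KRT80 was at 42.0, 96.4 and 32.3 CPM in untreated SKOV3/DDP and 7.60, 6.20 and 6.99 CPM with PAE (-3.04 ± 0.35, adjusted p = 7.59e-05). In the keratin list of 15, 8 were lower and 1 was higher, and without untreated replicate 2 these were 5 and 2. Keratin pseudogenes are many, and the counting of reads shared with them was not stated.

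Of 31 tight junction and desmosome genes, 15 were lower and none higher, with 10 lower without untreated replicate 2. E-cadherin (CDH1) was at 411, 585 and 331 CPM in untreated SKOV3/DDP and 139.9, 111 and 196 CPM with PAE (-1.57 ± 0.47, adjusted p = 0.0229), and its call was lost without that library (adjusted p = 0.0626). Desmoplakin (DSP) was at 276, 237 and 241 CPM in untreated SKOV3/DDP and 106, 105 and 148 CPM with PAE (-1.07 ± 0.30, adjusted p = 0.0178). Of 21 mesenchymal genes, 10 were lower and 2 higher (CDH11 and LOX). Vimentin (VIM) was low throughout, at 9.17, 7.70 and 9.92 CPM in untreated SKOV3/DDP and 2.31, 2.54 and 1.10 CPM with PAE (-2.16 ± 0.55, adjusted p = 0.0100), and S100A4 was at 554, 377 and 673 CPM in untreated SKOV3/DDP and 163, 147 and 116 CPM with PAE (-1.91 ± 0.24, adjusted p = 0.000159). ZEB1 was not called (adjusted p = 0.331).

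Intestinal epithelial genes, some of which were expressed in untreated SKOV3/DDP, fell. Of 13 tested of a list of 29, 9 were lower and none higher, with a median of -1.63. CDX2, the master factor of intestinal identity, was at 202, 107 and 181 CPM in untreated SKOV3/DDP and 40.7, 37.5 and 38.9 CPM with PAE (-2.07 ± 0.27, adjusted p = 0.000256). CDH17, a cadherin of intestinal epithelium, was at 328, 396 and 295 CPM in untreated SKOV3/DDP and 114, 122 and 198 CPM with PAE (-1.23 ± 0.27, adjusted p = 0.00574). VIL1 (villin) was at 9.92, 13.1 and 9.92 CPM in untreated SKOV3/DDP and 1.72, 1.83 and 0.77 CPM with PAE (-2.92 ± 0.45, adjusted p = 0.000694), and EPS8L3 was at 86.7, 95.2 and 97.3 CPM in untreated SKOV3/DDP and 33.7, 34.4 and 22.1 CPM with PAE (-1.63 ± 0.24, adjusted p = 0.000934). The groups did not overlap for these 4 genes. HNF4A was at 30.7, 26.8 and 26.8 CPM in untreated SKOV3/DDP and 22.96, 17.0 and 23.4 CPM with PAE and was not called (adjusted p = 0.369). The summed level of the 13 genes was 826 to 898 CPM in untreated libraries and 368 to 474 CPM with PAE. Without both libraries that stood apart, 7 were lower. The secreted hormone gene AMH, of the Müllerian list (2 higher and 1 lower of 16), rose instead, at 4.56, 5.93 and 6.30 CPM in untreated SKOV3/DDP and 43.2, 36.1 and 16.5 CPM with PAE (2.51 ± 0.34, adjusted p = 0.000205).

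Growth factor receptors were lower at the RNA level. Of 16 ERBB receptors and ligands, 7 were lower and none higher, with 7 lower without untreated replicate 2 and 7 without both. EGFR was at 836, 729 and 872 CPM in untreated SKOV3/DDP and 171, 182 and 288 CPM with PAE (-1.93 ± 0.31, adjusted p = 0.000655). ERBB2 (HER2), which is known to be abundant in SKOV3, was at 119, 74.3 and 96.2 CPM in untreated SKOV3/DDP and 30.9, 24.3 and 41.4 CPM with PAE (-1.58 ± 0.27, adjusted p = 0.000904). The ligand NRG1 was at 9.17, 8.21 and 6.37 CPM in untreated SKOV3/DDP and 1.52, 2.11 and 1.27 CPM with PAE (-2.27 ± 0.34, adjusted p = 0.000418), whereas the ligands AREG and EREG were not called (adjusted p = 0.348 and 0.719).

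Some feedback inhibitors of ERK were lower. DUSP4 was at 862, 567 and 739.6 CPM in untreated SKOV3/DDP and 186, 206 and 216 CPM with PAE (-1.83 ± 0.23, adjusted p = 0.000145), DUSP6 at 603, 688 and 646 CPM in untreated SKOV3/DDP and 319, 388 and 169 CPM with PAE (-1.15 ± 0.33, adjusted p = 0.0188) and SPRY4 at 346, 253 and 411 CPM in untreated SKOV3/DDP and 116, 135 and 105 CPM with PAE (-1.51 ± 0.36, adjusted p = 0.00747). For each, the untreated libraries lay above the PAE libraries. SPRY2 was not called (adjusted p = 0.156). The nuclear receptor NR4A2 rose, at 7.15, 7.77 and 5.20 CPM in untreated SKOV3/DDP and 40.6, 38.5 and 34.2 CPM with PAE (2.49 ± 0.49, adjusted p = 0.00230). Over 35 genes of the list 7 were lower (20%, against 14.7% over all genes) and 1 higher (2.9%, against 11.8%). These counts became 8 and 5 without untreated replicate 2.

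Negative feedback targets of WNT and β-catenin were lower in 9 of 21 cases and higher in 2. AXIN2 was at 355, 110.5 and 317 CPM in untreated SKOV3/DDP and 51.3, 64.8 and 50.2 CPM with PAE (-2.23 ± 0.48, adjusted p = 0.00428), RNF43 at 264, 131 and 215 CPM in untreated SKOV3/DDP and 38.8, 38.7 and 60.0 CPM with PAE (-2.15 ± 0.27, adjusted p = 0.000128) and APCDD1 at 89.1, 34.1 and 97.7 CPM in untreated SKOV3/DDP and 9.96, 10.01 and 9.30 CPM with PAE (-2.92 ± 0.40, adjusted p = 0.000259). Untreated replicate 2 was the lowest of the untreated libraries for all 3, and above the PAE libraries. The stem cell receptor LGR5 was at 6.23, 2.97 and 6.61 CPM in untreated SKOV3/DDP and 1.37, 0.52 and 0.55 CPM with PAE (-2.68 ± 0.55, adjusted p = 0.00392). NKD1, TCF7 and LEF1 were not called (adjusted p = 0.854, 0.0820 and 0.948). In the TGF-beta and BMP list 3 of 28 genes were higher (10.7%, against 11.8% over all genes) and 6 lower (21.4%, against 14.7%). BMP4 fell, at 627, 266 and 711 CPM in untreated SKOV3/DDP and 131, 144 and 98.1 CPM with PAE (-2.10 ± 0.35, adjusted p = 0.00170), and BMP2 rose, at 2.25, 5.74 and 1.96 CPM in untreated SKOV3/DDP and 10.3, 8.60 and 12.6 CPM with PAE (1.66 ± 0.39, adjusted p = 0.00654). In the Notch pathway 3 of 16 were higher (18.75%, against 11.8% over all genes) and 3 lower (18.75%, against 14.7%). The ligand JAG1 was at 1331, 1014 and 1243 CPM in untreated SKOV3/DDP and 318, 347 and 423 CPM with PAE (-1.72 ± 0.29, adjusted p = 0.000935), while DLL4 was at 3.98, 3.98 and 3.67 CPM in untreated SKOV3/DDP and 15.4, 13.3 and 16.6 CPM with PAE (1.96 ± 0.39, adjusted p = 0.00273) and the target HES1 at 52.1, 42.7 and 61.0 CPM in untreated SKOV3/DDP and 117, 131 and 82.1 CPM with PAE (1.08 ± 0.26, adjusted p = 0.00788).

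Stress response genes depended on untreated replicate 2. ATF4 is the transcription factor of the integrated stress response and drives genes for amino acid supply. Of 27 tested genes of that response, 6 were higher with all libraries, and 23 without untreated replicate 2, against 11.5% over all genes in that fit. The median moved from 1.12 to 2.45, and none was lower in either fit. Without both libraries that stood apart 22 were higher. ATF4 was at 264, 1046 and 337 CPM in untreated SKOV3/DDP and 1235, 1173 and 953 CPM with PAE, TRIB3 at 47.5, 590.3 and 59.5 CPM in untreated SKOV3/DDP and 602, 513 and 556 CPM with PAE and CHAC1, which degrades glutathione, at 7.96, 197 and 27.5 CPM in untreated SKOV3/DDP and 218, 172 and 134 CPM with PAE. In each, untreated replicate 2 lay within the PAE range and untreated replicates 1 and 3 lay far below. Log2 fold changes without that library were 1.90, 3.38 and 3.30 (adjusted p = 0.000111, 8.31e-05 and 0.000698), whereas none of the 3 was called with it. Whether replicate 2 or the other 2 untreated libraries represent the untreated state cannot be told from 3 libraries.

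Some members were called with every library in. SLC3A2, the heavy chain of the LAT1 and xCT transporters, was at 175, 1018 and 213 CPM in untreated SKOV3/DDP and 2013, 1580.1 and 1689 CPM with PAE (1.91 ± 0.50, adjusted p = 0.0123). CEBPB was at 36.3, 111 and 42.8 CPM in untreated SKOV3/DDP and 221, 192 and 118 CPM with PAE (1.48 ± 0.38, adjusted p = 0.0109), and ATF5 at 16.8, 51.2 and 16.8 CPM in untreated SKOV3/DDP and 85.6, 76.1 and 63.6 CPM with PAE (1.41 ± 0.34, adjusted p = 0.00848). ASNS, asparagine synthetase, was low, at 0.46, 3.72 and 0.61 CPM in untreated SKOV3/DDP and 6.92, 6.39 and 13.9 CPM with PAE (2.50 ± 0.64, adjusted p = 0.0103). For all 4 the groups did not overlap. Over 19 amino acid transporters 4 were higher and 5 lower, against 12 and 4 without untreated replicate 2. SLC7A11, the cystine carrier of xCT, was at 57.0, 902 and 70.9 CPM in untreated SKOV3/DDP and 304, 404 and 529.6 CPM with PAE and was not called with all libraries (adjusted p = 0.841).

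**Figure D4:**
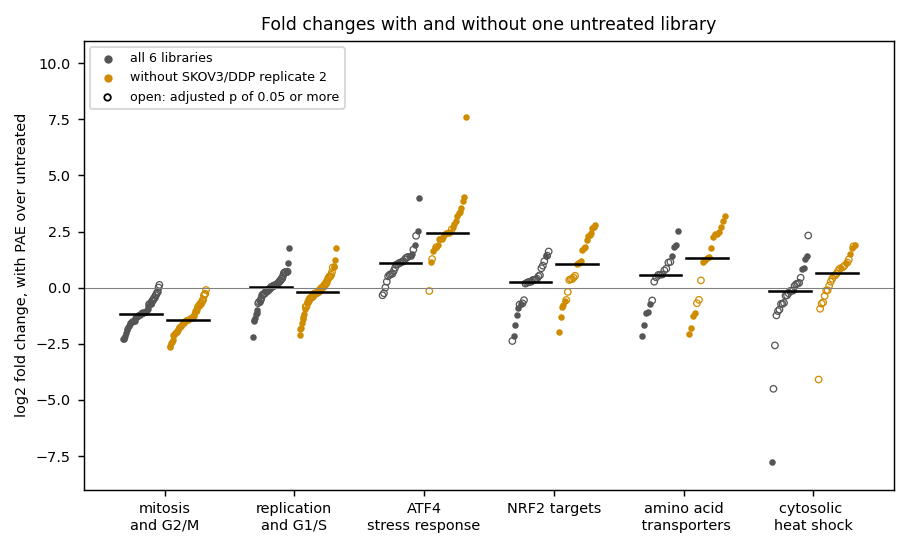
Log2 fold change (PAE over untreated) of each tested member of 6 gene lists, fitted with all libraries (grey) and without untreated SKOV3/DDP replicate 2 (orange); filled points were called at an adjusted p under 0.05 and the black bar is the median. Mitosis genes lie below 0 in both fits, whereas the median of the ATF4 list rises from 1.12 to 2.45.

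NRF2 targets, which defend against oxidants, showed the same dependence. With all libraries 1 of 26 was higher and 5 were lower, and without untreated replicate 2 14 were higher and 5 lower. HMOX1, heme oxygenase, was at 15.0, 1484 and 13.3 CPM in untreated SKOV3/DDP and 125, 93.0 and 73.1 CPM with PAE. Its log2 fold change was -2.38 and not called with all libraries (adjusted p = 0.193), and turned to 2.78 without untreated replicate 2 (adjusted p = 0.0235). GCLM, of glutathione synthesis, was at 54.6, 257 and 55.2 CPM in untreated SKOV3/DDP and 239.9, 256 and 333 CPM with PAE, and was called only without that library (adjusted p = 0.0895 with it and 0.000338 without). NQO1, the classical NRF2 target, was called lower in both fits, at 1760.2, 3136 and 1856 CPM in untreated SKOV3/DDP and 737, 769 and 656 CPM with PAE (-1.64 ± 0.25, adjusted p = 0.000508; -1.33 without that library). PGD, of the pentose phosphate pathway, was higher at 127, 206 and 125 CPM in untreated SKOV3/DDP and 419, 405 and 396 CPM with PAE (1.41 ± 0.21, adjusted p = 0.000457).

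Several chaperone genes of the cytosol and the endoplasmic reticulum were high in untreated replicate 2. Of 25 cytosolic heat shock genes 4 were higher and 1 was lower. HSPA6, an inducible HSP70, was at 0.17, 105 and 0.43 CPM in untreated SKOV3/DDP and 0.15, 0 and 0.33 CPM with PAE, and its call as lower rested on that library (adjusted p = 0.848 without it). AHSA1, which activates HSP90, was higher regardless, at 61.6, 93.2 and 62.7 CPM in untreated SKOV3/DDP and 212, 169.7 and 154 CPM with PAE (1.30 ± 0.24, adjusted p = 0.00171). HSPA5 (BiP), the main chaperone of the reticulum, was at 3651, 19856 and 4020.5 CPM in untreated SKOV3/DDP and 6695, 4916 and 8098 CPM with PAE and was not called (adjusted p = 0.644), and PDIA4 was lower at 1285, 3439.9 and 1159.7 CPM in untreated SKOV3/DDP and 613, 545 and 853 CPM with PAE (-1.55 ± 0.46, adjusted p = 0.0231), a call lost without untreated replicate 2 (adjusted p = 0.129). Over 29 chaperone genes 1 was higher and 2 lower with all libraries, against 7 and 0 without it. Metallothioneins, which bind heavy metals and platinum, were lower in 4 of 4 tested. MT1E was at 254, 308 and 265 CPM in untreated SKOV3/DDP and 99.3, 105 and 68.7 CPM with PAE (-1.60 ± 0.23, adjusted p = 0.000849), MT2A at 489, 525 and 521 CPM in untreated SKOV3/DDP and 286, 285 and 169 CPM with PAE (-1.05 ± 0.27, adjusted p = 0.0109) and MT1X at 61.0, 119 and 68.4 CPM in untreated SKOV3/DDP and 40.2, 46.6 and 29.6 CPM with PAE (-1.09 ± 0.26, adjusted p = 0.00736), and metallothioneins are similar in sequence and may share reads. Without both libraries that stood apart 1 of the 4 was lower.

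The axis named by the study runs through FOXO3 phosphorylation and the stability of the MYC protein, which RNA levels do not measure. The study also places transcription of FBXW7, promoted by nuclear FOXO3, on that axis. Among the genes of that axis, NEK6 fell at the RNA level. It was at 156, 122 and 141 CPM in untreated SKOV3/DDP and 38.6, 32.9 and 48.5 CPM with PAE (-1.81 ± 0.24, adjusted p = 0.000179) at chr9:124257606-124353307, and the groups did not overlap. The exact two-sided permutation p for 3 against 3 libraries was 0.1, the smallest that design allows. FOXO3, the forkhead factor, was at 33.9, 36.9 and 34.1 CPM in untreated SKOV3/DDP and 63.4, 58.4 and 83.3 CPM with PAE (0.97 ± 0.30, adjusted p = 0.0260), and was not called without both libraries that stood apart (adjusted p = 0.114). FBXW7, the ubiquitin ligase subunit that targets MYC, was at 20.01, 31.8 and 20.8 CPM in untreated SKOV3/DDP and 37.7, 38.4 and 35.6 CPM with PAE and was not called (adjusted p = 0.0963), with no overlap between the groups. Without untreated replicate 2, FBXW7 was called higher (log2 fold change 0.87, adjusted p = 0.0376). Without PAE replicate 3 (adjusted p = 0.109) or without both libraries (adjusted p = 0.0518) FBXW7 was not called. MYC was at 34.7, 32.7 and 18.4 CPM in untreated SKOV3/DDP and 19.4, 25.7 and 27.9 CPM with PAE, with overlapping groups (log2 fold change -0.23 ± 0.34, adjusted p = 0.657). MYC target and ribosome biogenesis genes had 2 higher and 1 lower of 39. Of 26 FOXO targets 5 were higher (19.2%, against 11.8% over all genes) and 5 lower (19.2%, against 14.7%). SESN1, a stress sensor that restrains mTOR, was at 26.3, 20.8 and 20.9 CPM in untreated SKOV3/DDP and 71.1, 68.2 and 71.8 CPM with PAE (1.63 ± 0.27, adjusted p = 0.000703), and CITED2 at 72.6, 78.5 and 53.4 CPM in untreated SKOV3/DDP and 14.5, 15.4 and 26.2 CPM with PAE (-1.87 ± 0.30, adjusted p = 0.000649).

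The enzymes of de novo purine synthesis were lower in 6 of 13 cases and higher in none. The median log2 fold change was -0.77, and the count was 6 without untreated replicate 2, 6 without PAE replicate 3 and 6 without both. The members called were not the same in each fit, as given below for ADSL and GART. PFAS, of the fourth step, was at 16.1, 13.1 and 16.3 CPM in untreated SKOV3/DDP and 4.37, 6.81 and 7.59 CPM with PAE (-1.28 ± 0.25, adjusted p = 0.00226). ATIC, which closes the ring to IMP, was at 178, 168 and 171 CPM in untreated SKOV3/DDP and 82.6, 64.8 and 83.2 CPM with PAE (-1.17 ± 0.23, adjusted p = 0.00277). IMPDH2, which turns IMP toward guanine nucleotides, was at 217, 236 and 195 CPM in untreated SKOV3/DDP and 95.6, 99.1 and 111 CPM with PAE (-1.08 ± 0.19, adjusted p = 0.000957), and IMPDH1 at 68.6, 59.5 and 74.4 CPM in untreated SKOV3/DDP and 38.5, 34.1 and 34.2 CPM with PAE (-0.92 ± 0.19, adjusted p = 0.00290). PAICS was at 169, 170.4 and 166 CPM in untreated SKOV3/DDP and 107, 88.9 and 98.6 CPM with PAE (-0.78 ± 0.20, adjusted p = 0.0118), and ADSL at 60.1, 54.5 and 46.9 CPM in untreated SKOV3/DDP and 31.0, 36.4 and 27.5 CPM with PAE (-0.77 ± 0.22, adjusted p = 0.0177). The groups did not overlap for these 6 enzymes. PPAT, of the first committed step, was at 39.7, 62.9 and 34.3 CPM in untreated SKOV3/DDP and 51.2, 50.6 and 85.8 CPM with PAE and was not called (adjusted p = 0.327). GART was at 85.1, 102 and 60.4 CPM in untreated SKOV3/DDP and 39.9, 31.8 and 64.2 CPM with PAE, where PAE replicate 3 lay inside the untreated range (adjusted p = 0.0562). Without PAE replicate 3, GART was called lower (adjusted p = 0.0243) and ADSL was not called (adjusted p = 0.0766). The same held without both libraries that stood apart (adjusted p = 0.0463 for GART and 0.0899 for ADSL).

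Among pyrimidine and deoxynucleotide genes, 5 of 16 were lower. RRM2, the S phase subunit of ribonucleotide reductase, was at 134, 108 and 97.4 CPM in untreated SKOV3/DDP and 39.4, 38.6 and 47.0 CPM with PAE (-1.44 ± 0.24, adjusted p = 0.000724), while the related subunit gene RRM2B was at 171, 144 and 156 CPM in untreated SKOV3/DDP and 225, 268 and 378 CPM with PAE (0.89 ± 0.23, adjusted p = 0.0116). CAD, DHODH and UMPS of pyrimidine synthesis were not called (adjusted p = 0.429, 0.418 and 0.944).

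Genes of glucose entry differed at the RNA level. SLC2A1, the glucose transporter GLUT1, was at 2802, 2761 and 2568 CPM in untreated SKOV3/DDP and 385, 389 and 503 CPM with PAE (-2.67 ± 0.24, adjusted p = 2.64e-05). The glucose transporter SLC2A3 was at 201, 379 and 149 CPM in untreated SKOV3/DDP and 204, 202 and 268 CPM with PAE and was not called (adjusted p = 0.848). The hexokinase HK2 was at 31.9, 94.9 and 27.8 CPM in untreated SKOV3/DDP and 77.6, 75.3 and 95.3 CPM with PAE. It was not called with all libraries (adjusted p = 0.247) and was higher without untreated replicate 2 (log2 fold change 1.47, adjusted p = 0.00829). Of 23 tested glycolysis genes 8 were lower and none higher. ALDOC was at 82.9, 87.5 and 64.0 CPM in untreated SKOV3/DDP and 27.5, 24.998 and 22.9 CPM with PAE (-1.64 ± 0.29, adjusted p = 0.00111), PFKL at 93.2, 71.6 and 85.3 CPM in untreated SKOV3/DDP and 38.4, 29.7 and 42.8 CPM with PAE (-1.17 ± 0.24, adjusted p = 0.00295) and GPI at 211, 229.5 and 201 CPM in untreated SKOV3/DDP and 114, 112 and 73.3 CPM with PAE (-1.10 ± 0.25, adjusted p = 0.00549). LDHA was at 131, 44.3 and 6.55 CPM in untreated SKOV3/DDP and 35.5, 2.21 and 3.91 CPM with PAE and was not called (adjusted p = 0.227), and neither was ENO1 (adjusted p = 0.421). The wider set of hypoxia (HIF) targets had no common direction with all libraries, with 5 higher and 3 lower of 27. Without untreated replicate 2, VEGFA, DDIT4 and ADM were called higher (log2 fold changes 2.28, 2.96 and 2.06, adjusted p = 9.32e-05, 0.000328 and 0.0176). In that fit the higher call of BNIP3 (adjusted p = 0.125) and the lower call of CA12 (adjusted p = 0.0637) were lost. SLC2A1 and ANGPTL4 stayed lower.

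Lipid genes were divided. In fatty acid synthesis 6 of 18 were lower, among them the desaturase SCD at 295, 250.3 and 209 CPM in untreated SKOV3/DDP and 116, 112 and 157 CPM with PAE (-0.97 ± 0.25, adjusted p = 0.0108) and its regulator SREBF1 at 141, 189.8 and 134 CPM in untreated SKOV3/DDP and 97.6, 74.6 and 80.8 CPM with PAE (-0.88 ± 0.20, adjusted p = 0.00565). FASN was not called (adjusted p = 0.368). The fat cell regulator PPARG was at 69.2, 84.9 and 77.4 CPM in untreated SKOV3/DDP and 26.8, 29.6 and 23.5 CPM with PAE (-1.53 ± 0.28, adjusted p = 0.00141), and the coactivator PPARGC1A rose from 2.83 ± 0.93 CPM to 10.5 ± 1.48 CPM (mean ± SD, n = 3; 1.89 ± 0.46, adjusted p = 0.00864). Cholesterol synthesis genes were called as often higher as lower (3 and 3 of 25).

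Xenobiotic genes were lower in 8 of 18. CYP1A1, the classical target of the aryl hydrocarbon receptor, was at 5.71, 8.84 and 8.51 CPM in untreated SKOV3/DDP and 0.74, 0.85 and 1.49 CPM with PAE (-2.91 ± 0.43, adjusted p = 0.000381), while the receptor gene AHR rose (0.77 ± 0.25, adjusted p = 0.0336), a call lost without untreated replicate 2 (adjusted p = 0.0710). ALDH1A3 was at 15.3, 11.2 and 15.3 CPM in untreated SKOV3/DDP and 2.11, 2.58 and 2.26 CPM with PAE (-2.59 ± 0.30, adjusted p = 7.75e-05). In the drug efflux family, ABCG2 (BCRP) was at 18.5, 27.8 and 17.0 CPM in untreated SKOV3/DDP and 6.82, 7.24 and 5.72 CPM with PAE (-1.68 ± 0.43, adjusted p = 0.0105), a call lost without both libraries that stood apart (adjusted p = 0.0850). ABCC3 was at 83.2, 166 and 100.4 CPM in untreated SKOV3/DDP and 51.7, 54.6 and 43.3 CPM with PAE (-1.22 ± 0.24, adjusted p = 0.00243). ABCB1 (P-glycoprotein) was at 77.6, 110.1 and 49.4 CPM in untreated SKOV3/DDP and 90.5, 81.7 and 126 CPM with PAE, with overlapping groups (adjusted p = 0.549). Over 27 ABC transporters 4 were higher (14.8%, against 11.8% over all genes) and 4 lower (14.8%, against 14.7%). Glutathione S-transferases, which conjugate drugs, were lower in 6 of 16 and higher in none, among them GSTO1 at 81.8, 72.0 and 93.8 CPM in untreated SKOV3/DDP and 34.9, 36.9 and 27.5 CPM with PAE (-1.32 ± 0.22, adjusted p = 0.000905). GSTP1 was not called (adjusted p = 0.415). Of 12 genes of platinum and copper transport 3 were higher and 1 was lower. The copper chaperone ATOX1, which also binds platinum, was at 54.8, 40.4 and 66.8 CPM in untreated SKOV3/DDP and 37.7, 30.3 and 25.5 CPM with PAE (-0.79 ± 0.22, adjusted p = 0.0168), and LRRC8A and LRRC8D, channel subunits that admit cisplatin, rose by 0.77 and 1.05. The copper transporter SLC31A1 was not called (adjusted p = 0.370).

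DNA repair genes were lower in 7 of 38 (18.4%, against 14.7% over all genes) and higher in 1 (2.6%, against 11.8%). ERCC1, of the nuclease that excises platinum adducts, was at 119, 109 and 136 CPM in untreated SKOV3/DDP and 57.2, 59.9 and 37.9 CPM with PAE (-1.23 ± 0.23, adjusted p = 0.00165). FANCD2 was at 22.0, 10.9 and 18.9 CPM in untreated SKOV3/DDP and 7.95, 8.41 and 10.2 CPM with PAE (-0.96 ± 0.30, adjusted p = 0.0299). BRCA1 and BRCA2 were not called (adjusted p = 0.501 and 0.945).

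Genes of the BCL2 family and its partners were called in both directions. Of 24 tested, 5 were higher (20.8%, against 11.8% over all genes) and 3 lower (12.5%, against 14.7%). BCL2L1 (BCL-xL), which holds back cell death, was at 207, 238 and 209.7 CPM in untreated SKOV3/DDP and 70.0, 57.7 and 57.8 CPM with PAE (-1.82 ± 0.21, adjusted p = 7.58e-05). BCL2L11 (BIM), which promotes it, was at 15.9, 16.8 and 17.0 CPM in untreated SKOV3/DDP and 42.8, 36.9 and 67.1 CPM with PAE (1.56 ± 0.33, adjusted p = 0.00392). BBC3 (PUMA) was at 19.9, 37.3 and 21.7 CPM in untreated SKOV3/DDP and 68.7, 63.5 and 39.4 CPM with PAE (1.12 ± 0.36, adjusted p = 0.0314). The groups did not overlap for these 3 genes. CASP9, an initiator caspase, rose by 0.84 on the log2 scale. MCL1 and BCL2 were not called (adjusted p = 0.866 and 0.731).

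Lysosome and autophagy genes were higher in 10 of 32 and lower in 1, with 6 higher without PAE replicate 3 and 7 without both. GLA, the lysosomal α-galactosidase, was at 23.8, 34.1 and 26.5 CPM in untreated SKOV3/DDP and 103, 97.6 and 71.4 CPM with PAE (1.69 ± 0.25, adjusted p = 0.00036). The lysosomal calcium channel MCOLN1 was at 7.61, 9.09 and 10.2 CPM in untreated SKOV3/DDP and 23.2, 22.5 and 17.6 CPM with PAE (1.23 ± 0.21, adjusted p = 0.000996). MAP1LC3B (LC3B), which coats autophagosomes, was at 142, 723 and 159 CPM in untreated SKOV3/DDP and 973, 936 and 918 CPM with PAE (1.47 ± 0.49, adjusted p = 0.0395), with untreated replicate 2 nearest to the PAE range. SQSTM1 and LAMP1 were not called (adjusted p = 0.452 and 0.760).

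Clock genes changed in both directions. Of 18 tested, 5 were higher (27.8%, against 11.8% over all genes) and 4 lower (22.2%, against 14.7%). The repressor NR1D2 (REV-ERBβ) was at 83.9, 163 and 61.0 CPM in untreated SKOV3/DDP and 235, 237 and 471 CPM with PAE (1.62 ± 0.38, adjusted p = 0.00678), and PER1 at 34.3, 82.3 and 32.9 CPM in untreated SKOV3/DDP and 137, 98.5 and 164 CPM with PAE (1.42 ± 0.37, adjusted p = 0.0116). CLOCK, the activator of the loop, was at 176, 104 and 141 CPM in untreated SKOV3/DDP and 51.6, 57.7 and 98.4 CPM with PAE (-1.02 ± 0.31, adjusted p = 0.0262), and PER3 at 12.2, 23.6 and 13.2 CPM in untreated SKOV3/DDP and 6.47, 6.86 and 6.11 CPM with PAE (-1.33 ± 0.34, adjusted p = 0.0101). Among long non-coding RNAs, H19 was at 225, 233 and 147 CPM in untreated SKOV3/DDP and 48.6, 81.3 and 59.4 CPM with PAE (-1.67 ± 0.46, adjusted p = 0.0156), UCA1 at 147, 101 and 189 CPM in untreated SKOV3/DDP and 50.7, 59.4 and 30.6 CPM with PAE (-1.63 ± 0.34, adjusted p = 0.00339) and the host gene SNHG7 at 13.2, 26.6 and 14.8 CPM in untreated SKOV3/DDP and 69.2, 56.6 and 44.9 CPM with PAE (1.65 ± 0.31, adjusted p = 0.00186). The groups did not overlap for these 3 transcripts, and MALAT1 and NEAT1 were not called (adjusted p = 0.648 and 0.264).

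Other lists had few calls or calls in both directions. Of 31 proteasome genes 1 was higher and 1 lower, and of 32 SR proteins and hnRNPs, which direct splicing, 2 were higher and 2 lower. Primary cilium genes were lower in 10 and higher in 5 of 49 cases, and mucin and glycosylation genes in 6 and 2 of 23. In fatty acid oxidation and PPAR targets 4 of 25 were higher and 7 lower. The complement list had 3 higher and 2 lower of 15, and LXR targets had 1 lower of 7. Further lists changed with the omission of untreated replicate 2. Serine and one-carbon genes had 1 of 17 higher with it and 6 without it, and aminoacyl-tRNA synthetases 2 and 6 of 19. Iron and ferroptosis genes had 2 and 7 of 20 higher, and abundant long non-coding RNAs and snoRNA hosts 3 and 9 of 29.

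Several of the calls above were lost when the libraries that stood apart were left out, in fits that also had fewer samples. Of the named genes, 54 lost their call without PAE replicate 3 and 29 without untreated replicate 2. Leaving out untreated replicate 1 or 3 lost 79 and 72, and PAE replicate 1 or 2 lost 73 and 69. A lost call thus does not by itself show that it rested on a library that stood apart. Without PAE replicate 3, no call remained for CCNB1, PLK1, UHRF1, ISG15, CCL5, ACTB, TUBB3, DUSP6, HSPA6, FOXO3, ADSL, AHR, ATOX1, MAP1LC3B or H19. Their adjusted p-values without it lay between 0.0521 for PLK1 and 0.124 for AHR. Without both libraries, calls were also lost for AMOTL2, SRF, MT2A, MT1X, RRM2B and PER3, with adjusted p-values between 0.0530 for SRF and 0.113 for AMOTL2.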

How the data were processed

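Total RNA was extracted with Trizol, polyadenylated RNA was captured on oligo-dT beads, and libraries were prepared with a NEBNext Ultra kit. The submitters' processing notes name HISAT2 2.0.5 and StringTie 1.3.3b, and the program and strand setting behind the counts were not given in the sources used here. The table deposited by the authors held whole-number read counts per gene for 12 libraries, with no normalization.

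The 869 loci without a gene name were left out (0.25% to 0.68% of the counts of a library). Named genes were filtered with filterByExpr, scaled by TMM and fitted for the 4 groups together with edgeR 4.0.16 in R 4.3.3 (quasi-likelihood test, Benjamini-Hochberg adjustment over 17133 genes). Standard errors were obtained from each fold change and its F statistic. Alternatives used DESeq2 1.42.0, limma 3.58.1 (voom), other filters, scalings and thresholds, a replicate block, a GC and length correction and the omission of libraries.

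Genes were named by rule: the 15 protein-coding genes with the largest changes of each sign (called, at least 10 CPM in the higher group, groups not overlapping, mitochondrially encoded and histone genes left out), key members of 60 gene lists, and up to 4 further called members of each list with at least 5 CPM. Some of the genes so chosen, and 1 of the lists, are not reported here. The members and lists were chosen with earlier results of these data known. Promoter and motif letters came from RefSeq (GRCh38.p14, first entry per gene). On simulated counts for this comparison (16526 genes, 200 changed), 17% of the genes changed by 1 on the log2 scale and 76% of those changed by 2 were called. Of the unchanged genes 0.043% were called.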

Additional observations from a re-analysis of the deposited data

How the results depend on the processing

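Of the 4526 genes called, none was called in the opposite direction under any of the 16 other fits. DESeq2 called 4454 of them again in the same direction, voom 4379 and the fit to the 6 libraries alone 4148. Leaving out 1 library at a time gave between 2815 and 4349 called genes, between 1155 and 2056 higher and between 1657 and 2293 lower. The lowest total came without untreated replicate 1, and without untreated replicate 3 it was 2837; these fits had fewer samples. The fewest lower calls came without untreated replicate 1, and without PAE replicate 1 there were 1663. An unadjusted p under 0.05 with an absolute log2 fold change over 2 left 1218 genes (506 higher and 712 lower), and an adjusted p under 0.05 with an absolute log2 fold change over 1 left 3102 (1241 higher and 1861 lower). Same-numbered libraries of the groups did not deviate together (correlations of -0.16, 0.02 and -0.25). Differently numbered libraries gave correlations between -0.23 and 0.28. With 3 libraries a group and 1 that stood apart in each, these values cannot settle whether the numbers marked pairs. With the replicate number as a block, 3997 genes were called (1721 higher and 2276 lower), 3933 of them as before. Of 506 named genes, 1 changed direction with a call in either fit, HMOX1, to 2.78 without untreated replicate 2 and to 2.95 without both libraries that stood apart. Named genes called in neither fit were not counted here, and some changed sign, such as SHMT2, from -0.32 to 0.54 without untreated replicate 2. Over all fits that left out 1 library the log2 fold change of HMOX1 lay between -2.91 and 2.78. Leaving out both was chosen after seeing the data, and it called 3874 genes, 3102 of them as before. Of the named genes, 56 lost their call in that fit and 37 gained one. GC content was known for 88.1% of the genes. At this depth and with 3 libraries a side, changes of 1 on the log2 scale can be missed. The simulated counts do not settle how many were missed here. They held 200 changed genes of 16526, whereas 26.4% of genes were called in the data, and the adjustment of p-values depends on that share.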
